A study of Mus musculus with 15 samples.

Results

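Early and late fetal liver of the inbred mouse strain C57BL/6 were compared by sequencing of total RNA from whole livers. The early side held the libraries of embryonic days E12.5, E13.5 and E14.5, and the late side those of E16.5, E17.5 and E18.5. These 6 libraries were chosen by age from the 15 of the series, which also holds 8 libraries taken after birth. The library of E15.5, which lies between both sides, was left out of every test and served as an outside point. No treatment or altered allele was stated for any library, and age was counted from the vaginal plug. Each age had 1 library, so the 3 ages of a side stood in for replicates, and their spread mixes noise with change over these days. The sources used here do not say if animals were pooled for a library. All p-values therefore rest on the spread among these 6 libraries, which need not be that among embryos. An exact permutation test of 3 against 3 libraries cannot give a two-sided p below 0.10, so single genes were tested by limma's moderated model across all genes.

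The fetal liver is both a liver and the main blood-forming organ of the embryo. Its parenchyma consists at first of hepatoblasts, bipotent cells that mature into hepatocytes and bile duct cells, and these grow around a large population of maturing red cells. Hepatocytes secrete most plasma proteins, run the urea cycle, make glucose and bile acids and clear foreign compounds, and most of these tasks are taken up toward birth. Near birth, blood formation moves to the bone marrow, while white cell lineages become more visible in the liver. The comparison asks which of these programs differ in RNA level between both ends of the fetal period.

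Values are FPKM, fragment counts scaled by transcript length and library total. Differences are given as late minus early on the scale of log2(FPKM + 1), which understates the change of low genes, with the standard error (SE) of the fit. The estimated depth was 15.6 to 20.3 M (mega) fragments per library, where 3 fragments on 1000 bases correspond to 0.147 to 0.192 FPKM. This floor covers counting error only. Hepatocyte and hepatoblast markers were abundant at every age, with Afp at 3447 FPKM or more and Ttr at 383 FPKM or more. Among markers of neighbouring tissues, the pancreatic protease gene Prss1 was at 0 FPKM in all 6 libraries, but Cela1, a pancreatic elastase gene, stood at 4.698, 5.32 and 7.55 FPKM early and at 17.2, 18.1 and 19.2 FPKM late and was called higher. The summed pancreas markers Prss1, Cela1 and Cpa1 went from a range of 5.02 to 8.25 FPKM to one of 17.6 to 19.9 FPKM. This sum followed Cela1 alone, since Cpa1 stood at 0.324, 0.881 and 0.696 FPKM early and at 0.403, 0.215 and 0.721 FPKM late. Lgals4, a gut lectin, was also higher (2.44 log2). The summed muscle markers Acta1, Myh3 and Ckm reached at most 2.03 FPKM, and Actc1, cardiac actin, which was called lower, stood at 5.70, 2.46 and 0.945 FPKM early and at 1.17, 0.125 and 0.0883 FPKM late. The part of such tissue in other results was not tested. In bulk tissue, fewer cells of a type and less RNA per cell cannot be told apart. At E13.5 and E16.5 the deviation of a gene from its mean over the 6 libraries went with the GC content of its transcripts. Spearman's rho, taken over genes, which are not independent replicates, was 0.43 and 0.45, against -0.40 at E14.5 and -0.04 at E18.5. The Y-linked Ddx3y lay at 4.98, 1.61 and 5.81 FPKM on the early side and at 0.0425, 0.0433 and 1.20 FPKM on the late side. The sources used here do not give the sex of the embryos. Y-linked RNA thus moved with the sides compared, and its part in other results was not tested.

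Among 12453 genes tested, 1450 (11.6%) were higher and 2956 (23.7%) were lower in late fetal liver at an adjusted p under 0.05 (limma, Benjamini-Hochberg), together 35.4%. The median over all genes was -0.31 log2. Every late library lay above every early one for 1914 genes (15.4%), and every late library lay below every early one for 4612 genes (37.0%). Counts of list members are to be read against these shares. Members that had over 1 FPKM in fewer than 3 early libraries met the filter on low values only with the late ones. Their being higher follows in part from the filter. In the same way, being lower follows in part from the filter for genes with over 1 FPKM in fewer than 3 late libraries. The balance of calls depended on the scaling. Of all calls, 32.9% were higher with FPKM as deposited, 50.5% after quantile normalization, 71.0% after median-ratio scaling, 41.6% after removal of each library's GC trend and 37.8% with globins and mitochondrial genes left out of the totals. Under median-ratio scaling the median over all genes was -0.03 log2, and 736 genes were lower in place of 2956. Small falls are therefore given below beside their value under this scaling. Leaving out 1 library at a time gave between 761 and 1654 genes higher and between 340 and 3721 lower. Both lowest values came without E12.5. Counts of lower genes were also over 1.5 times smaller without E14.5 (1888), E17.5 (788) or E18.5 (1044), and the count of higher genes was 957 without E17.5. None of these called genes was called in the opposite direction under any alternative tried.

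**Figure D1:**
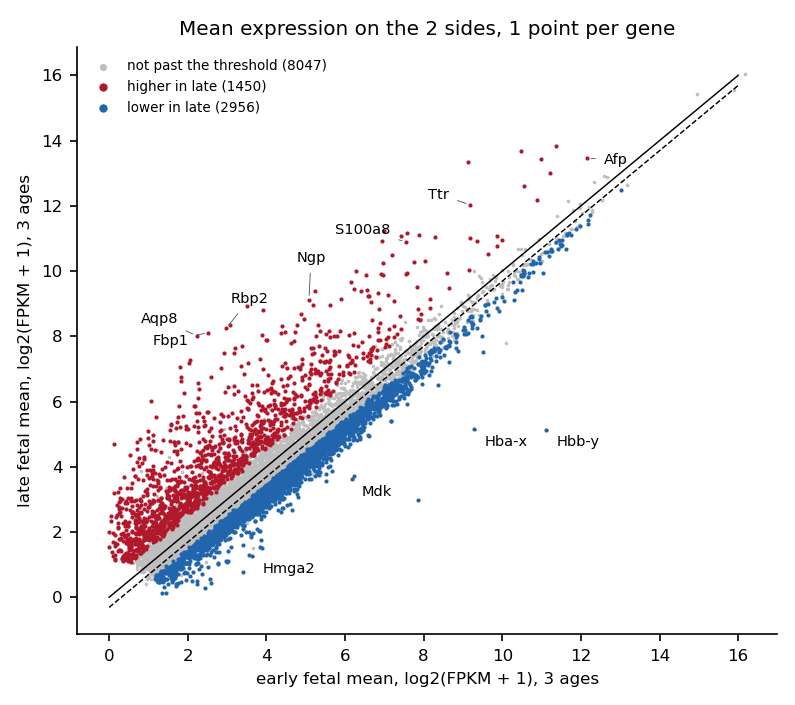
Mean log2(FPKM + 1) over the 3 early fetal ages (horizontal axis) against the 3 late fetal ages (vertical axis), 1 point for each of 12453 genes, with genes higher in red, lower in blue and the rest in grey. The solid line marks equal values and the dashed line the median difference of -0.31; the blue points form a broad band close below the line, while red points and the embryonic globins Hba-x and Hbb-y lie far from it.

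The largest falls were those of the embryonic globins, the oxygen carriers of the first, yolk-sac-derived red cells. All 3 members tested fell, and their summed level went from a range of 933 to 9427 FPKM on the early side to 40.6 to 159 FPKM on the late side. Hbb-y, the embryonic epsilon-type beta globin (GRCm38.p2 chromosome 7, 103851754 to 103853207, identifier gene18063), stood at 6588, 2462 and 666 FPKM at E12.5, E13.5 and E14.5 and at 76.6, 27.2 and 18.84 FPKM at E16.5, E17.5 and E18.5. Each age was lower than the one before, and the sides did not overlap. The log2 difference was -5.98 ± 0.76 (SE, n = 3 ages a side; adjusted p = 0.00144). Hba-x, the embryonic zeta-type alpha globin (chromosome 11, 32276600 to 32278116, gene25729), went from 2246, 619 and 173 FPKM to 65.1, 32.4 and 19.01 FPKM, a difference of -4.14 ± 0.80 (adjusted p = 0.00813). Hbb-bh1, a second embryonic beta-type globin (chromosome 7, 103841638 to 103843162, gene18062), went from 593, 220 and 94.3 FPKM to 17.3, 5.97 and 2.79 FPKM, a difference of -4.89 ± 0.69 (adjusted p = 0.00222). Hbb-y and Hbb-bh1 also have an entry on a scaffold outside the chromosomes, and reads may be split between the copies. At E15.5 the 3 genes stood at 200, 80.4 and 46.5 FPKM for Hbb-y, Hba-x and Hbb-bh1, between both sides. The calls held under each of the 16 alternatives.

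Adult globins could be followed only in part. Estimates of Hba-a1 and Hba-a2 had failed at E13.5, E14.5, E16.5 and E17.5, and those of Hbb-bs and Hbb-bt at E16.5. Hbb-bs, the adult beta globin of this strain, stood at 65495, 69610 and 89183 FPKM on the early side and at 82747 and 55600 FPKM at E17.5 and E18.5, a log2 difference of -0.13 ± 0.23 (adjusted p = 0.678) from 2 late libraries. The sides overlapped.

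The start sites of both embryonic globins with the most RNA are shown because they carry the classical red cell promoter boxes. The sequences are the 120 bases before the RefSeq transcript start (GRCm38.p6), written 5′ to 3′ on the gene's strand. Capitals mark TGATAA, which is the box of GATA factors, and CACCC, the box of the KLF family, in Hba-x (chr11:32276480-32276599, plus strand). In Hbb-y (chr7:103853208-103853327, minus strand) they mark the same KLF box and the NF-Y box CCAAT.
Hba-x: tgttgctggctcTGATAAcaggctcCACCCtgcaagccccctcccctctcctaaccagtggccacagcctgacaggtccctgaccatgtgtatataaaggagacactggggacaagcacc
Hbb-y: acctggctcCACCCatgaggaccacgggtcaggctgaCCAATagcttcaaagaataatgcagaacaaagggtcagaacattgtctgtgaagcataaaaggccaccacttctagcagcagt
The GATA box of Hba-x began 108 bases and its CACCC box 95 bases before the start. In Hbb-y, CACCC began 111 bases and CCAAT 83 bases before the start. Over 250 bases before the start and on both strands, CACCC occurred in 52.0% and CCAAT in 33.9% of the 32851 promoter windows of the table, so neither is rare. A match is a stretch of letters and no evidence that a factor binds there.

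Few other red cell genes passed the test. None of 16 genes of the red cell membrane and surface passed the test, and their median was -0.59 log2, against -0.31 over all genes. All late libraries lay below all early ones for 2 members and above them for 1. Without E13.5 and E16.5 together 13 were lower, and without E16.5 alone 9 were. Slc4a1, the band 3 anion exchanger, stood at 878, 1154 and 1031 FPKM early and at 1364, 710 and 434 FPKM late. E16.5 was the highest of all 6 libraries and E18.5 the lowest. Alas2, the erythroid enzyme that starts heme synthesis, differed by 0.14 ± 0.27 log2 (adjusted p = 0.692).

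Several transcription factors of red cell precursors were lower. Of 12 erythroid factors, 6 were lower and none higher. Bcl11a, which silences embryonic and fetal globin genes, stood at 34.1, 37.4 and 30.6 FPKM early and at 17.5, 12.8 and 6.56 FPKM late, a log2 difference of -1.49 ± 0.31 (adjusted p = 0.0100). Gata1, the master factor of the lineage, stood at 145, 175 and 149 FPKM early and at 128, 78.3 and 45.1 FPKM late, and its difference of -1.01 ± 0.33 only just passed (adjusted p = 0.0432). Epor, the erythropoietin receptor, went from 181, 186 and 186 FPKM to 139, 88.3 and 55.6 FPKM, a difference of -1.06 ± 0.30 (adjusted p = 0.0267). Epor came from a list of late erythroblast maturation, of which 2 of 13 were lower, a smaller share than the 23.7% of all genes, and 1 higher. That lower count was 0 under median-ratio scaling and without any one of E12.5, E13.5, E14.5, E17.5 or E18.5, and 6 without E16.5. In all 3 genes the lowest value was that of E18.5. The calls of Gata1 and Epor were lost without any one of E12.5, E13.5, E14.5, E17.5 or E18.5 and under median-ratio scaling, while that of Bcl11a held under every alternative. Of 15 genes of heme synthesis and red cell iron uptake, 3 were lower, 11 without E16.5, and 0 without E12.5, E14.5 or E17.5. Only 1 erythroid factor and no heme gene was lower under median-ratio scaling. With E12.5, E14.5, E17.5 or E18.5 left out, 1 erythroid factor was lower, and 2 without E13.5.

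Lists of secreted proteins, most of which hepatocytes make, rose together. Of 28 plasma protein genes tested, 25 were higher and none lower, with a median of 2.95 log2, and the late libraries lay above all early ones in 25. Of 22 genes of coagulation and fibrinolysis 21 were higher (median 2.25), and all 22 complement genes tested were higher (median 1.79), of which 5 met the filter only with late libraries. Apolipoproteins and lipoprotein handling gave 16 of 22 (median 1.53), and acute phase genes 13 of 19 (median 2.32). Among the 19 acute phase genes, 3 had over 1 FPKM in fewer than 3 early libraries. None of these lists had a lower member. Hp, Itih4 and Cp are counted among both plasma proteins and acute phase genes, and Lcn2 (3.88 log2) is also on the neutrophil list. Which cells carried the RNA of these genes was not tested. The 94 genes of the lists of plasma proteins, coagulation, complement and apolipoproteins together took 1.45, 1.96 and 3.10% of the summed FPKM at E12.5, E13.5 and E14.5, 5.78% at E15.5, and 9.72, 12.2 and 14.2% at E16.5, E17.5 and E18.5. The last value lies too low, because the estimates of Alb and Fetub had failed at E18.5. Failed adult globin estimates were missing from the totals of E13.5 to E17.5, most of all at E16.5, which raises those shares. Under median-ratio scaling the counts of higher members were 25, 21 and 22 for plasma proteins, coagulation and complement. Without E12.5 they were 13 for complement and 10 for apolipoproteins.

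Individual plasma proteins spanned a wide range of levels. Alb, the main plasma protein, stood at 2513, 1410 and 5063 FPKM early and at 9047 FPKM (E16.5) and 23414 FPKM (E17.5) late, a log2 difference of 2.47 ± 0.55 (adjusted p = 0.0152) from 2 late libraries. This call was lost without E12.5. Ahsg, fetuin A (chromosome 16, 22892015 to 22899451, gene35957), stood at 376, 493 and 956 FPKM early and at 6095, 9755 and 18262 FPKM late. Its difference was 4.19 ± 0.43 (adjusted p = 0.000763), and the level rose at every step. Trf, the iron carrier transferrin, started higher, at 1174, 1250 and 1962 FPKM, and reached 9382, 12534 and 18882 FPKM. Ttr, the carrier of thyroid hormone and retinol-binding protein, went from 383, 573 and 889 FPKM to 3386, 4301 and 5041 FPKM. Azgp1, a secreted lipid-mobilising glycoprotein, showed the largest difference of the list, from 4.13, 2.03 and 3.66 FPKM to 50.5, 148 and 471 FPKM (5.203 ± 0.65; adjusted p = 0.00136). The list also held a gene that went another way. Serpina6, the corticosteroid carrier, stood at 863, 1068 and 1402 FPKM early, at 1039 FPKM at E16.5, at 556 FPKM at E17.5 and at 17.6 FPKM at E18.5, and its difference of -2.30 ± 1.22 did not pass (adjusted p = 0.156). It was chosen after its values were seen.

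Clotting and complement genes moved in the same way along their cascades. The 3 fibrinogen chains, the clot-forming protein, rose in step. Fga stood at 105, 122 and 241 FPKM early and at 756, 1365 and 2976 FPKM late, Fgb at 201, 179 and 359 against 895, 2219 and 5360 FPKM, and Fgg at 148, 138 and 330 against 1011, 2343 and 5155 FPKM. Their log2 differences were 3.31 ± 0.48, 3.22 ± 0.56 and 3.60 ± 0.55, and in each the value of E18.5 was the highest. C3, the central complement protein, went from 67.5, 91.2 and 139 FPKM to 405, 553 and 959 FPKM (2.64 ± 0.35; adjusted p = 0.00174). Vtn, vitronectin, which restrains the terminal complement complex, was the most abundant member and went from 185, 274 and 344 FPKM to 996, 1244 and 1645 FPKM. Mbl2, a mannose-binding lectin that starts the lectin pathway, stayed at 1.96, 1.52 and 1.88 FPKM early and at 3.76 FPKM at E16.5 and reached 74.3 FPKM at E18.5. Its difference of 2.68 ± 0.78 (adjusted p = 0.0297) was lost without any one of E12.5, E13.5, E14.5 or E17.5. Pros1, protein S, was the one clotting gene that did not pass (0.05 log2).

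**Figure D2:**
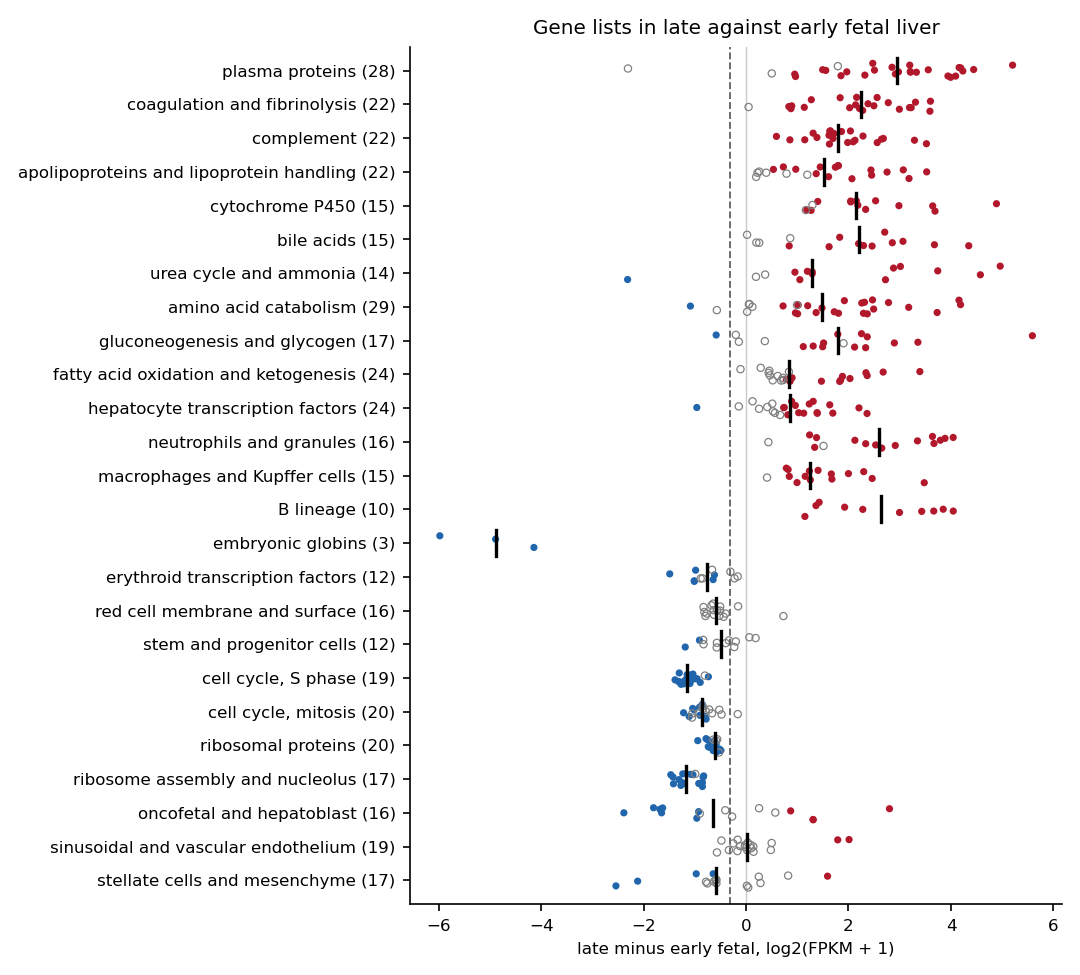
Log2 difference, late minus early fetal liver, for each tested member of 25 gene lists; red and blue points passed the test upward and downward, open points did not, black bars are list medians, and the number of tested members stands in brackets. The dashed line is the median over all genes (-0.31); the lists of secreted proteins lie to the right of it with medians of 1.53 to 2.95, and the embryonic globins far to the left.

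Promoters of secreted protein genes are shown because those of plasma proteins and complement often hold GTTAAT, a part of the binding sequence of HNF1 factors, which regulate hepatocyte genes. The windows are the 120 bases before the RefSeq start (GRCm38.p6), 5′ to 3′ on the gene's strand, with GTTAAT or its reverse complement ATTAAC in capitals. They come from Alb (chr5:90460750-90460869, plus strand), Serpina1a, an inhibitor of neutrophil elastase (chr12:103863620-103863739, minus strand), Fga (chr3:83026033-83026152, plus strand) and Fgb (chr3:83049864-83049983, minus strand).
Alb: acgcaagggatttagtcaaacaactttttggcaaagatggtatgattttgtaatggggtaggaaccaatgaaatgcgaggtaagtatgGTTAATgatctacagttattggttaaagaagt
Serpina1a: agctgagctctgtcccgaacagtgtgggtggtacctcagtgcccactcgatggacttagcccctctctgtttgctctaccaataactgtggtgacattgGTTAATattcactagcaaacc
Fga: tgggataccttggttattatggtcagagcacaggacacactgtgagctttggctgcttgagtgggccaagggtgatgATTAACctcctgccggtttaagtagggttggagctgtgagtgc
Fgb: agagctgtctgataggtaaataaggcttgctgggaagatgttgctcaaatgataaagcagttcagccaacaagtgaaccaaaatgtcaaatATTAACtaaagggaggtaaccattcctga
The box began 32, 21, 43 and 29 bases before the start in Alb, Serpina1a, Fga and Fgb. Within 250 bases before the start it occurred in 12 of 25 windows of the plasma protein list (48.0%) and in 7 of 17 of the complement list (41.2%), but in 3 of 20 of the coagulation list (15.0%), 2 of 19 of the apolipoprotein list (10.5%) and 1 of 17 of the acute phase list (5.88%). The share was 6.43% of all 32851 windows of the table and 4.265% of the 11910 windows of genes tested. It was 7.50% over genes higher in late liver and 3.65% over genes lower. The Serpina1 genes are a family of close copies, so their windows are not independent. Serpina1a itself went from 159, 216 and 296 FPKM to 1001, 1310 and 1443 FPKM (2.51 ± 0.26; adjusted p = 0.000763). A match describes the letters only.

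Enzymes of intermediary metabolism rose with large differences, though from low early levels. Of 14 genes of the urea cycle and ammonia handling, 11 were higher and 1 lower, and 2 had over 1 FPKM in fewer than 3 early libraries. Cps1, the mitochondrial enzyme that commits ammonia to urea (chromosome 1, 67123027 to 67231267, gene762, with a further entry on a scaffold), stood at 1.15, 0.771 and 1.39 FPKM early and at 27.8, 65.8 and 142 FPKM late. Its difference was 4.96 ± 0.48 (adjusted p = 0.000663). Arg1, which releases urea, went from 4.90, 5.62 and 9.87 FPKM to 93.7, 195 and 309 FPKM (4.57 ± 0.41; adjusted p = 0.000467). Ass1, the third enzyme of the cycle, was higher early than either of these, at 67.4, 122 and 97.0 FPKM, and reached 648, 666 and 760 FPKM. The lower member was Rhbg, an ammonium transporter of the cell membrane, which went from 13.4, 16.5 and 10.9 FPKM to 2.48, 1.09 and 2.38 FPKM (-2.31 ± 0.25; adjusted p = 0.000846). Glul, glutamine synthetase, went from 94.9, 112 and 107 FPKM to 123, 127 and 158 FPKM and did not pass (0.37 ± 0.19; adjusted p = 0.134), although its sides did not overlap. Without E12.5, 7 members were higher.

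Amino acid catabolism gave 22 of 29 genes higher (median 1.48) and 1 lower, and 4 of the 29 had over 1 FPKM in fewer than 3 early libraries. Mat1a, which makes S-adenosylmethionine in the adult liver, went from 5.27, 4.25 and 10.4 FPKM to 84.7, 125 and 208 FPKM (4.19 ± 0.37). Gnmt, which uses up S-adenosylmethionine, went from 8.37, 16.4 and 19.04 FPKM to 220, 271 and 307 FPKM (4.16 ± 0.29), with adjusted p = 0.000467 and 0.000254 for the 2 genes. The tyrosine-degrading enzymes Hpd and Fah differed by 3.73 ± 0.40 and 3.18 ± 0.26. Tat, the first enzyme of that path, stood at 1.47, 0.963 and 1.06 FPKM early and at 1.45, 2.08 and 9.50 FPKM late and did not pass (adjusted p = 0.116). E18.5 alone stood out, and the gene was chosen after its values were seen. The lower member, Oat, which converts ornithine, went from 50.5, 53.0 and 48.5 FPKM to 29.4, 21.4 and 20.2 FPKM.

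Most genes of gluconeogenesis and glycogen were higher. Of 17 tested, 3 of which had over 1 FPKM in fewer than 3 early libraries, 12 were higher. Gyg, the protein primer of glycogen, was the 1 gene lower (-0.58 log2). The lower count was 0 under median-ratio and quantile scaling and without any one of E12.5, E13.5, E17.5 or E18.5. Fbp1, fructose-1,6-bisphosphatase (chromosome 13, 62864753 to 62888282, gene31157), stood at 6.598, 3.76 and 4.30 FPKM early and at 76.6, 386 and 710 FPKM late. It had the second largest rise among the genes named by size (5.59 ± 0.67; adjusted p = 0.00116). The glycogen-building genes Ppp1r3b, Ppp1r3c and Gbe1 differed by 3.35 ± 0.39, 2.90 ± 0.44 and 2.37 ± 0.23. G6pc, which releases glucose, stood at 2.99, 0.557 and 0.995 FPKM early and at 0.984, 4.03 and 64.0 FPKM late. Pck1, the gate enzyme of gluconeogenesis, stood at 7.11, 2.74 and 2.37 FPKM early and at 2.56, 3.76 and 11.9 FPKM late. Neither passed (adjusted p = 0.171 and 0.561), their sides overlapped and the highest value was that of E18.5. Both were chosen after their values were seen.

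Glycolysis showed exchanges between isoenzymes, with 5 genes higher and 5 lower of 24. Aldoc, an aldolase, went from 5.88, 6.15 and 6.20 FPKM to 27.1, 28.0 and 35.6 FPKM (2.13 ± 0.18). Aldoa, the widely expressed aldolase, differed by -0.84 log2. Ldhb, a lactate dehydrogenase subunit, went from 33.3, 25.5 and 14.7 FPKM to 5.87, 6.10 and 6.83 FPKM (-1.74 ± 0.28; adjusted p = 0.00387), while its partner subunit Ldha differed by 0.90 log2 upward. Gapdh was at 1476, 1802 and 1152 FPKM early and at 1693, 1363 and 1261 FPKM late, with no difference past the test (-0.02 ± 0.22; adjusted p = 0.935). Only 1 member was lower under median-ratio scaling. The lower count was also 1 without any one of E12.5, E13.5, E17.5 or E18.5, and 10 without E16.5. The higher count was 3 without E17.5.

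Lists of lipid genes had medians below those of the secreted proteins. Fatty acid oxidation and ketogenesis gave 13 of 24 higher and none lower (median 0.85), cholesterol synthesis 8 of 21 (median 0.34) and lipogenesis 8 of 19 (median 0.58). Fabp1, the liver fatty acid carrier, stood at 137, 149 and 330 FPKM early and at 487, 792 and 2419 FPKM late (2.36 ± 0.55; adjusted p = 0.0151), a call lost without E12.5. Without E12.5 the counts were 7, 1 and 2 for these lists, and cholesterol synthesis gave 3 without E17.5 and 5 without E18.5. Lipogenesis gave 5 without E14.5 and 5 without E17.5. Bile acid genes gave 11 of 15 higher and none lower, with a median of 2.20, and 6 of the 15 met the filter only with late libraries. Slc10a1, which takes bile acids up from blood, went from 1.501, 0.953 and 1.40 FPKM to 15.2, 43.9 and 135 FPKM (4.35 ± 0.61; adjusted p = 0.00225). Abcb11, the bile salt export pump, went from 1.66, 1.45 and 3.65 FPKM to 9.004, 20.2 and 53.1 FPKM (2.86 ± 0.53; adjusted p = 0.00718). Cyp8b1, which makes cholic acid precursors, went from 0.727, 1.41 and 1.48 FPKM to 13.5, 23.2 and 60.5 FPKM.

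Enzymes that clear foreign compounds were in part already higher before birth. Of 15 cytochrome P450 genes tested 13 were higher (median 2.15), while 11 of the 26 on the list did not reach the filter on low values and 4 of the 15 met it only with late libraries. Cyp2d26 was the most abundant, with 9.03, 12.8 and 24.1 FPKM early and 310, 407 and 707 FPKM late (4.89 ± 0.38; adjusted p = 0.000273). Cyp3a16, a form of fetal and young mice, went from 1.13, 1.42 and 5.93 FPKM to 23.3, 36.9 and 74.7 FPKM, and Cyp3a11, its adult relative, from 2.47, 1.27 and 3.19 FPKM to 12.5, 26.7 and 42.6 FPKM. Reads of these near-identical genes may be split by the counting, so their levels are uncertain. Cyp2e1, which oxidises ethanol, stood at 13.02, 4.97 and 5.203 FPKM early and at 5.47, 9.04 and 89.8 FPKM late, so E18.5 alone stood out and it did not pass (adjusted p = 0.287). It was chosen after its values were seen. Sult1a1, a sulfotransferase, led the conjugating enzymes, of which 11 of 20 were higher, with 2.33, 1.18 and 5.24 FPKM early and 55.7, 125 and 135 FPKM late (4.796 ± 0.43; adjusted p = 0.000467). Without E12.5, 8 P450 genes and 7 conjugating enzymes were higher, and 7 conjugating enzymes without E17.5. Of the 20 conjugating enzymes, 5 had over 1 FPKM in fewer than 3 early libraries.

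Factors that drive hepatocyte genes were mostly higher. Of 24 tested, 15 were higher and 1, Tbx3, was lower, with a median of 0.85. Over 1 FPKM was reached in fewer than 3 early libraries by 5 of the 24, among them Ppara. Hnf4a, a master regulator of the hepatocyte, stood at 28.2, 34.7 and 35.8 FPKM early and at 49.6, 49.8 and 67.8 FPKM late (0.73 ± 0.20; adjusted p = 0.0249). Cebpa, which restrains division of hepatocytes, went from 25.4, 46.5 and 33.8 FPKM to 87.9, 111 and 147 FPKM (1.69 ± 0.27; adjusted p = 0.00395). Nuclear receptors led the list. Ppara, the receptor of fatty acids, went from 0.940, 1.58 and 2.58 FPKM to 8.51, 12.5 and 17.99 FPKM (2.36 ± 0.30; adjusted p = 0.00143), and Nr1h4, the bile acid receptor, from 2.35, 1.72 and 3.13 FPKM to 6.05, 15.1 and 31.5 FPKM (2.20 ± 0.47; adjusted p = 0.0112). Foxa1 and Foxa2, the pioneer factors of the liver, did not pass (-0.14 and 0.67 log2). Without E12.5, 7 factors were higher. The lower call of Tbx3 was lost without E12.5, E13.5, E16.5 or E17.5 and under median-ratio scaling.

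**Figure D3:**
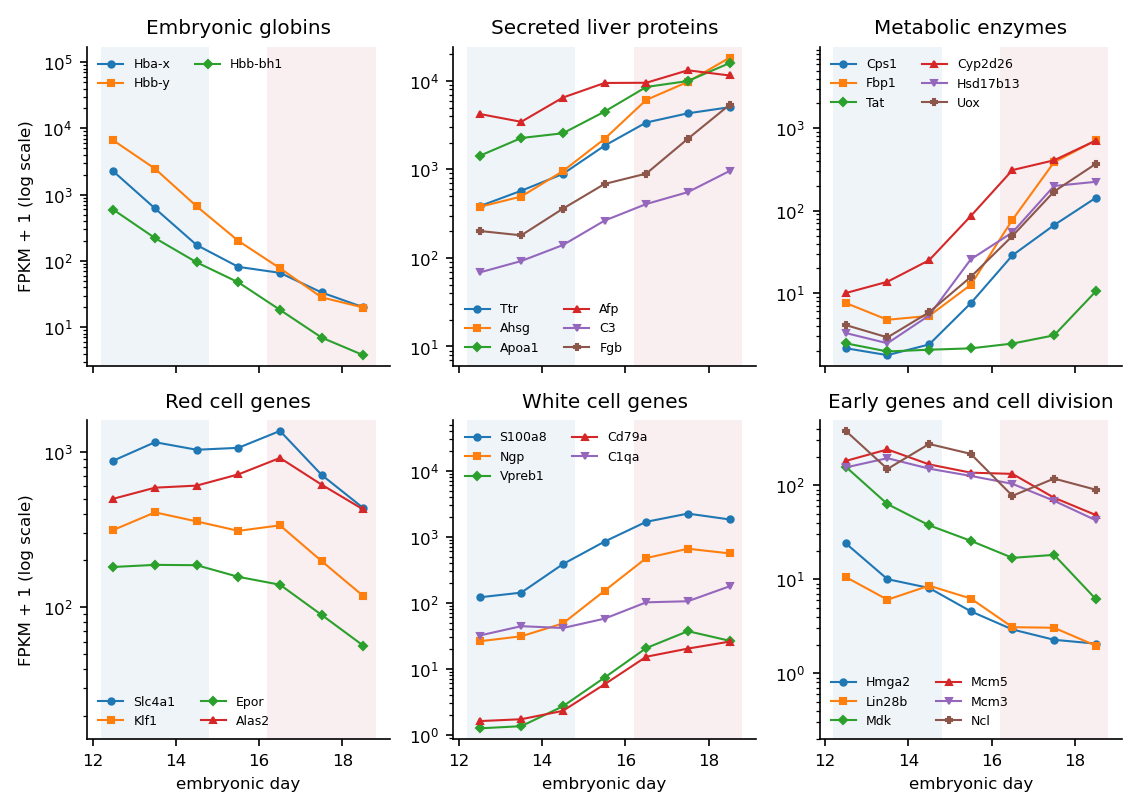
FPKM + 1 on a log scale against embryonic day for genes of 6 groups, 1 library per point, with the early ages shaded blue and the late ages red; E15.5, unshaded, was not used in the test. Embryonic globins fall at every step, secreted proteins and most enzymes climb, Tat stays at or under 2.08 FPKM until E17.5, and Slc4a1 and Alas2 peak at E16.5.

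Most neutrophil and macrophage genes were higher in late fetal liver. The list of mast cells, basophils and eosinophils gave 2 of 6 higher and 2 lower (median -0.04). Of these 6, 2 had over 1 FPKM in fewer than 3 early libraries and 1 in fewer than 3 late libraries. Neutrophil and granule genes gave 14 of 16 higher and none lower (median 2.59), and 2 had over 1 FPKM in fewer than 3 early libraries. S100a8, a calcium-binding protein that fills the neutrophil cytosol (chromosome 3, 90669071 to 90670034, gene6905), stood at 119, 141 and 383 FPKM early and at 1683, 2241 and 1828 FPKM late (3.35 ± 0.39; adjusted p = 0.00111). Ngp, a protein of secondary granules, went from 25.0, 29.9 and 47.4 FPKM to 473, 656 and 557 FPKM (4.04 ± 0.26; adjusted p = 0.000212). Ltf, lactoferrin of the same granules, went from 8.89, 9.95 and 13.4 FPKM to 118, 168 and 149 FPKM. Among genes of the earlier primary granules, 1 of the 2 fixed markers passed. Elane, neutrophil elastase, stood at 7.11, 35.6 and 58.2 FPKM early and at 215, 88.6 and 116 FPKM late (2.34 ± 0.65; adjusted p = 0.0250), and Mpo, myeloperoxidase, at 79.0, 164 and 141 FPKM early and at 298, 115 and 133 FPKM late, with overlapping sides (0.44 ± 0.39; adjusted p = 0.385).

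Of 13 B lineage genes, 3 did not reach the filter on low values and 9 of the other 10 met it only with late libraries, so that a count of higher members is fixed by the filter and their levels are given as a description. Vpreb1, part of the surrogate light chain of B cell precursors (chromosome 16, 16868401 to 16869255, gene35765), stood at 0.241, 0.338 and 1.68 FPKM early and at 19.5, 35.9 and 25.5 FPKM late (4.04 ± 0.33). Igll1, its partner chain, was listed at 0 FPKM at E12.5, at 0.471 and 1.98 FPKM at E13.5 and E14.5 and at 18.4, 27.8 and 22.5 FPKM late. Pax5, which commits cells to the lineage, went from 0.112, 0.122 and 0.160 FPKM, near the floor, to 2.80, 5.67 and 5.53 FPKM (2.28 ± 0.24). Cd79a, a subunit of the antigen receptor complex, went from 0.598, 0.705 and 1.29 FPKM to 14.1, 19.1 and 24.6 FPKM. Of 13 T and NK cell genes, only 4 were tested, and 2 of these were higher. Gzma, 1 of these 2, stood at 0, 0 and 0.653 FPKM early and met the filter only with late libraries.

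Macrophage and Kupffer cell genes gave 14 of 15 higher and none lower (median 1.26), and 9 without E12.5. Clec4f, a lectin of mouse Kupffer cells, went from 1.78, 1.69 and 3.61 FPKM to 16.3, 33.8 and 77.9 FPKM (3.48 ± 0.48; adjusted p = 0.00202). Vsig4, a complement receptor of the same cells, went from 0.180, 0.199 and 0.174 FPKM to 1.61, 6.54 and 13.1 FPKM (2.46 ± 0.50; adjusted p = 0.00956). Its early values were near the floor, and it met the filter on low values only with late libraries. Csf1r, the receptor of the lineage's growth factor, went from 13.4, 18.7 and 17.7 FPKM to 42.7, 35.9 and 44.0 FPKM (1.26 ± 0.20; adjusted p = 0.00368). C1qa, a subunit of complement C1q made by macrophages, went from 30.7, 43.0 and 40.3 FPKM to 100, 104 and 176 FPKM. Of 12 stem and progenitor genes tested, 2 were lower, Cd34 and Gata2, and none higher, a smaller share lower than the 23.7% of all genes. Cd34 stood at 16.2, 11.9 and 7.83 FPKM early and at 7.36, 3.30 and 3.64 FPKM late (-1.19 ± 0.32; adjusted p = 0.0228). The count was 0 under median-ratio scaling and without E12.5, E17.5 or E18.5, it was 1 without E13.5, and it was 6 without E16.5. Antigen presentation and interferon response gave 6 of 12 higher and none lower, with 4 that met the filter only with late libraries. The count was 3 without E12.5, 4 without E18.5 and 11 without E16.5. The genes higher were those of antigen presentation, such as H2-Ab1, an MHC class II chain, at 0.569, 1.33 and 0.898 FPKM early and 4.44, 4.11 and 4.16 FPKM late (1.46 ± 0.19; adjusted p = 0.00173). Isg15, a ubiquitin-like protein induced by interferon, stood at 4.12, 6.11 and 11.1 FPKM early and at 4.64, 27.6 and 275 FPKM late, and it did not pass (adjusted p = 0.140). It was chosen after its values were seen.

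Genes of DNA replication were lower in late fetal liver. Of 19 S phase genes, 18 were lower (median -1.15, or -0.83 under median-ratio scaling, where 7 were lower). Pcna, the sliding clamp of DNA polymerase, stood at 674, 579 and 727 FPKM early and at 405, 352 and 204 FPKM late (-1.09 ± 0.26; adjusted p = 0.0169), a call lost under median-ratio scaling and without E12.5 or E14.5. Mcm3 and Mcm5, subunits of the replicative helicase, stood at 154, 193 and 149 FPKM and at 181, 240 and 166 FPKM early. Late values were 103, 67.4 and 41.5 FPKM for Mcm3 (-1.30 ± 0.31) and 131, 72.7 and 47.3 FPKM for Mcm5 (-1.32 ± 0.34), with adjusted p = 0.0155 and 0.0205. In each gene the late values fell from E16.5 to E18.5. The list count was 1 without E12.5, 10 without E14.5 or E17.5, and 11 without E18.5. Mitosis genes gave 9 of 20 lower and none higher, none of them under median-ratio scaling and 19 without E13.5 and E16.5. The mitosis count was 0 without E12.5, E14.5 or E17.5 and 2 without E18.5. Mki67, a marker of dividing cells, stood at 147, 27.7 and 167 FPKM early and at 32.8, 118 and 64.6 FPKM late, with its lowest values at E13.5 and E16.5, the libraries with the GC shift. It did not pass (adjusted p = 0.584) and was chosen after its values were seen.

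The promoters of Mcm3 (chr1:20820313-20820432, minus strand) and Mcm6 (chr1:128359706-128359825, minus strand) are shown for their NF-Y and E2F boxes. They are the 120 bases before the RefSeq start (GRCm38.p6), 5′ to 3′ on the gene's strand. Capitals mark CCAAT or its reverse complement ATTGG, the NF-Y box, and GCGCGAAA, the reverse complement of the E2F box TTTCGCGC.
Mcm3: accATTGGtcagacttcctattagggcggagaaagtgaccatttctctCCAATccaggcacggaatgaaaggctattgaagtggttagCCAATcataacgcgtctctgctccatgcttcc
Mcm6: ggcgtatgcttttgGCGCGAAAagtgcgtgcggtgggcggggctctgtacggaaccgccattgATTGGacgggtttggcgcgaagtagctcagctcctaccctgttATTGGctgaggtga
Mcm3 held 3 NF-Y boxes and Mcm6 held 2 beside the E2F box. In the 250 bases before the start, CCAAT occurred on either strand in 14 of 18 windows of S phase genes (77.8%) and in 14 of 16 of mitosis genes (87.5%), against 33.9% of all 32851 windows. TTTCGCGC occurred in 3 of 18 windows of S phase genes (16.7%), in 1.27% over genes lower in late liver and in 0.140% over genes higher. Its share was 0.521% over genes tested and 0.256% of all windows. Mcm6 went from 163, 149 and 160 FPKM to 107, 80.7 and 51.2 FPKM (-1.04 ± 0.26; adjusted p = 0.0193). These shares describe the letters of the windows only.

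Ribosome genes were lower as well. Of 17 genes of ribosome assembly and the nucleolus, 16 were lower (median -1.17), and 9 under median-ratio scaling, where the median was -0.86. Npm1, a nucleolar chaperone, stood at 1145, 399 and 802 FPKM early and at 187, 342 and 269 FPKM late (-1.47 ± 0.38; adjusted p = 0.01997), and Ncl, nucleolin, at 378, 148 and 274 FPKM against 76.3, 117 and 88.8 FPKM (-1.42 ± 0.33; adjusted p = 0.0152). The lowest value of each side came at E13.5 and E16.5 in both genes, and the call of Npm1 was lost under median-ratio scaling and without E12.5 or E14.5. Rrp9, a protein of the small subunit processome, had no such dip, with 56.1, 64.7 and 32.1 FPKM early and 24.1, 15.5 and 14.6 FPKM late (-1.42 ± 0.30; adjusted p = 0.0105). The list count was 2 without E12.5 and 9 without E17.5. Of 20 ribosomal protein genes, 16 were lower, with a median of only -0.61, and 0 were lower under median-ratio scaling (median -0.29). The ribosomal count was 0 without E12.5, E17.5 or E18.5, 1 without E14.5 and 5 without E13.5. Together these 20 genes took 3.94, 5.42 and 4.29% of the summed FPKM on the early side and 4.505, 2.84 and 2.41% on the late side. These shares overlap, since E16.5 lies above E12.5 and E14.5. All adult globin estimates had failed at E16.5 and were missing from its total, which raises its share. The summed level of the 20 genes did not overlap, at 38118 to 48427 FPKM early and 23662 to 33407 FPKM late. Housekeeping genes gave 4 of 12 lower, and 0 under median-ratio scaling.

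Genes known for early hepatoblasts and for liver tumours split into 2 groups. Of 16, 7 were lower and 4 higher, and 2 of the 16 had over 1 FPKM in fewer than 3 late libraries, among them Lin28b. The lower ones were mostly RNA-binding and chromatin proteins of the let-7 regulated growth program. Hmga2, a chromatin protein of dividing embryonic cells (chromosome 10, 120361275 to 120476935, gene25036), stood at 23.1, 9.03 and 7.09 FPKM early and at 1.93, 1.27 and 1.07 FPKM late (-2.38 ± 0.37; adjusted p = 0.00355). Lin28b, which blocks let-7 maturation, stood at 9.57, 5.07 and 7.55 FPKM early and at 2.10, 2.05 and 0.969 FPKM late (-1.63 ± 0.26; adjusted p = 0.00417), and Igf2bp1, an mRNA-binding protein, at 15.3, 15.5 and 9.83 FPKM against 4.82, 2.94 and 1.98 FPKM (-1.80 ± 0.28; adjusted p = 0.00344). The higher members were Afp, H19, Igf2 and Spink3. Afp, alpha-fetoprotein, the fetal counterpart of albumin, stood at 4230, 3447 and 6483 FPKM early and at 9523, 13172 and 11514 FPKM late (1.31 ± 0.25; adjusted p = 0.00743). Igf2, the fetal growth factor, went from 502, 606 and 597 FPKM to 999, 955 and 1169 FPKM (0.87 ± 0.18; adjusted p = 0.00996), and its call was lost without E12.5. The lower count was 5 under median-ratio scaling. Dlk1, a surface marker of hepatoblasts, stood at 433, 497 and 389 FPKM early and at 474, 259 and 104 FPKM late. Its sides overlapped and it did not pass (adjusted p = 0.141).

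Further genes among the 12 largest rises were 3 enzymes and a secreted peptide. Tff3, a trefoil peptide of epithelia, stood at 4.32, 11.1 and 22.3 FPKM early and at 273, 485 and 878 FPKM late (5.42 ± 0.55; adjusted p = 0.000763). Adh1, the main liver alcohol dehydrogenase, went from 8.07, 5.93 and 8.57 FPKM to 107, 394 and 797 FPKM (5.27 ± 0.59; adjusted p = 0.000941). Hsd17b13, an enzyme of lipid droplets, went from 2.28, 1.47 and 4.37 FPKM to 53.6, 198 and 223 FPKM (5.26 ± 0.51; adjusted p = 0.000676). Uox, which breaks down uric acid, went from 3.10, 1.91 and 4.87 FPKM to 48.4, 170 and 369 FPKM (5.15 ± 0.62; adjusted p = 0.00116). In all 4 genes every late library lay above every early one.

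Other falls of large size came from growth factors and regulators. Mdk, the heparin-binding growth factor midkine (chromosome 2, 91929821 to 91932282, gene4199), stood at 156, 62.1 and 36.5 FPKM early and at 15.9, 17.2 and 5.17 FPKM late (-2.54 ± 0.55; adjusted p = 0.0120). Ptn, pleiotrophin, its only close relative, stood at 39.4, 6.9998 and 8.46 FPKM early and at 2.81, 3.32 and 1.29 FPKM late (-2.11 ± 0.55; adjusted p = 0.0209), with E12.5 far above the rest and a call lost without E18.5. Cited1, a transcriptional coactivator, stood at 66.1, 95.6 and 62.4 FPKM early and at 42.7, 18.1 and 1.73 FPKM late, and its call (adjusted p = 0.0414) was lost without any one of E12.5, E13.5, E14.5 or E17.5 and under median-ratio scaling. Lgals1, a galactose-binding lectin, went from 650, 886 and 663 FPKM to 369, 176 and 92.8 FPKM (-1.99 ± 0.42; adjusted p = 0.0115). Eif2s3y, also among the 12 largest falls, is Y-linked. It stood at 13.6, 4.43 and 14.3 FPKM early and at 0.0635, 0.0800 and 3.50 FPKM late, and for it sex and age cannot be told apart. Eif2s3y also had over 1 FPKM in fewer than 3 late libraries.

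The endothelial list had a share of higher calls near that of all genes (11.6%) but no lower call, against 23.7% lower over all genes. The stellate list had a share of lower calls near 23.7%, and the small biliary list had a larger share of higher calls. Of 19 genes of sinusoidal and other endothelium, 2 were higher, Clec4g and Fcgr2b, both markers of liver sinusoids, and none lower. Over 1 FPKM was reached in fewer than 3 early libraries by 3 of the 19, among them Fcgr2b. Clec4g went from 2.40, 2.97 and 3.59 FPKM to 10.7, 13.5 and 23.0 FPKM (2.01 ± 0.27; adjusted p = 0.00191). The general endothelial markers Pecam1, Kdr, Stab2 and Lyve1 summed to 42.1 to 57.1 FPKM early and to 46.0 to 64.0 FPKM late. Stellate cell and mesenchyme genes gave 4 of 17 lower, 3 under median-ratio scaling, and 1 higher. The summed markers Des, Lrat, Reln and Pdgfrb were at 20.0 to 30.2 FPKM early and 13.9 to 18.4 FPKM late. The stellate lower count was 2 without E12.5 or E18.5 and 8 without E14.5. Biliary genes gave 3 of 7 higher, led by Ggt1, gamma-glutamyltransferase, which hepatocytes of the fetus also make, from 2.51, 4.44 and 4.45 FPKM to 30.3, 46.6 and 48.5 FPKM (3.16 ± 0.26; adjusted p = 0.000273). Only 7 of the 14 biliary genes on the list were tested. Over 1 FPKM was reached in fewer than 3 early libraries by 2 of these 7, among them Spp1, which was called higher. Sox9, the defining biliary factor, stayed between 0.343 and 1.71 FPKM over the 6 libraries.

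Hormone-related genes included an exchange of glucocorticoid enzymes. Of 16 genes of the glucocorticoid response, 6 were higher and 1 lower. Hsd11b1, which regenerates active glucocorticoid, went from 2.05, 1.76 and 2.11 FPKM to 15.3, 52.8 and 72.1 FPKM (3.75 ± 0.47; adjusted p = 0.00136). The lower member, Hsd11b2, which inactivates it, went from 7.63, 5.12 and 2.02 FPKM to 0.223, 0.268 and 0.189 FPKM (-2.15 ± 0.34; adjusted p = 0.00361). Every late value was close to the floor. Hsd11b2 met the filter on low values only with early libraries, so its call follows in part from the filter. Igfbp1, a binding protein of insulin-like growth factors, went from 57.5, 48.5 and 71.5 FPKM to 249, 593 and 1218 FPKM (3.25 ± 0.48; adjusted p = 0.00281). Ghr, the growth hormone receptor, went from 12.9, 7.07 and 11.6 FPKM to 17.8, 25.4 and 25.1 FPKM (1.06 ± 0.25; adjusted p = 0.0159), a call lost without E17.5.

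The library left out of the test lay between both sides for most called genes. At E15.5, 1370 of the 1450 higher genes (94.5%) and 2706 of the 2956 lower genes (91.5%) had a value between the early and the late mean, against 61.7% of all genes tested. The larger share follows in part from the call itself, which picks genes with a wide gap between both means. The median higher gene had covered 47.7% of its difference at E15.5 and the median lower gene 35.3%, against 36.4% over all genes tested. Lists differed in this place. The median was 58.7% for the complement genes called higher, 57.2% for plasma proteins, 57.9% for the embryonic globins and 53.7% for neutrophil genes, but 18.97% for S phase genes and 10.5% for mitosis genes called lower. The difference between lists was not tested. Among the higher genes, 282 rose at each of the 6 steps, against 291 of all genes tested, and among the lower genes 355 fell at each, against 413 of all. A gene that moves one way at every step has sides that do not overlap. That most such genes were called therefore follows from the comparison and is no separate result.

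Levels in the adult were set beside those of the late fetus. At postnatal week 8 (W8), 728 of the 1450 higher genes (50.2%) lay above their late fetal mean, against 22.6% of all genes tested, and 2714 of the 2956 lower genes (91.8%) did not, against 77.4% of all. A level under the late fetal mean at W8 does not show that a rise ended at birth, since Ahsg was at 5195 FPKM at W8 but at 32174 FPKM at postnatal week 2. Amino acid catabolism genes called higher were all 22 above their late fetal mean at W8, as were 20 of 25 plasma proteins and 20 of 22 complement genes. None of the 10 B lineage genes and 1 of the 14 neutrophil genes was. All 8 postnatal libraries lay below all 3 late fetal ones for 114 of the higher genes (7.86%), against 14.9% of all genes tested. The next 3 genes were chosen after their values were seen, as those with the highest ratio of late fetal mean to highest postnatal value among such genes with a late mean of 10 FPKM or more. Ndufa4l2, a mitochondrial protein induced by hypoxia, stood at 5.87, 3.53 and 2.52 FPKM early and at 65.6, 64.5 and 74.3 FPKM late and at 3.199 FPKM at D1 (3.85 ± 0.25; adjusted p = 0.000212). A2m, a protease inhibitor of plasma, went from 3.87, 6.18 and 21.0 FPKM to 104, 201 and 372 FPKM and was at 14.3 FPKM at D1 and 0.670 FPKM at W8. Scd2, a fatty acid desaturase, went from 135, 136 and 115 FPKM to 188, 222 and 196 FPKM (0.65 ± 0.18; adjusted p = 0.0241) and was at 9.98 FPKM at D1. Both of the following are among the 12 largest rises and also had every postnatal library below the late fetal ones. Rbp2, a carrier of retinol inside cells (chromosome 9, 98490537 to 98509771, gene22769), stood at 5.44, 7.04 and 8.49 FPKM early and at 153, 445 and 407 FPKM late (5.27 ± 0.38; adjusted p = 0.000273), at 29.5 FPKM at D1 and at 0.375 FPKM at W8. Aqp8, a water channel and the gene with the largest rise named (chromosome 7, 123462294 to 123468003, gene18537), went from 2.61, 3.32 and 5.58 FPKM through 18.6 FPKM at E15.5 to 172, 361 and 279 FPKM (5.79 ± 0.32; adjusted p = 0.000177) and to 17.0 FPKM at D1. Its highest postnatal value was 149 FPKM.

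**Figure D4:**
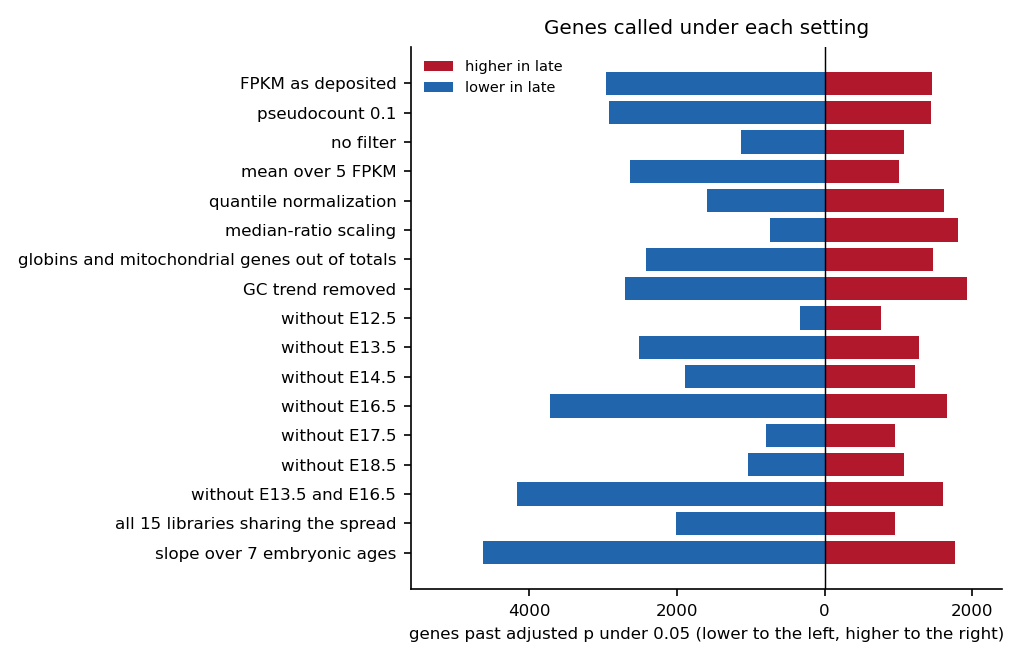
Number of genes past an adjusted p under 0.05, lower in late fetal liver to the left (blue) and higher to the right (red), for FPKM as deposited and each of the 16 alternatives. The red bars run from 761 to 1927 genes and the blue bars from 340 (without E12.5) to 4619 (slope over 7 embryonic ages).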

How the data were processed

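Total RNA of mouse liver was sequenced at 15 ages. The values are FPKM that the authors computed for each library and deposited with lower and upper bounds and a status, per the file headers. The submitters' processing notes name Bowtie 0.12.2, FastQC and the build GRCm38.p2 without their roles. Which program computed FPKM is not given in the sources used here. Values with a failed status were set to missing, and 2484 entries on scaffolds were left out. FPKM depend on each library's total, so an abundant gene lowers all others.

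Genes above 1 FPKM in at least 3 of the 6 libraries, with 2 valid values a side, were tested on log2(FPKM + 1) with limma-trend (limma 3.58.1, R 4.3.3), two-sided, Benjamini-Hochberg over 12453 genes, threshold 0.05. The fit was tested on simulated data. Depth was estimated from the deposited FPKM bounds; no count test was run. Tables and figures used Python 3.11.15, numpy 2.4.6, pandas 2.3.3 and matplotlib 3.10.9. Of 1008 symbols in 57 lists, 995 were matched; lists overlap and were described without a test. The libraries, lists and named genes were chosen with earlier results of these data known, so they give no independent support. Named genes were the 12 largest rises and 12 largest falls among called genes that averaged 10 FPKM or more on their higher side, leaving out predicted, repeated and pseudogenes, and up to 4 members past the threshold and the most abundant member of each list; the fixed cell type markers were also used, the text names a part, and other list members named as examples were chosen after their values were seen. GC content came from GENCODE transcripts, which covered 97.0% of tested genes. RefSeq promoter windows matched 9322 genes of those tested. Alternatives were another pseudocount, filter, scaling, GC correction, set of libraries and model. Some list members are not reported here.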

Additional observations from a re-analysis of the deposited data

How the results depend on the processing

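Settings other than those of the report changed the counts more than the direction. Of 203 named genes past the threshold, 104 stayed past it under every one of the 16 alternatives that gave a value, and none reversed. The count of lower genes was 1127 with no filter on low values, 1589 after quantile normalization, 736 after median-ratio scaling and 4619 with a slope over the 7 embryonic ages, against 2956. The count of higher genes was 949, against 1450, when all 15 libraries shared the spread. Leaving out 1 library at a time gave 761 to 1654 genes higher and 340 to 3721 lower. Genes with every late library above every early one numbered 2884 with no filter and 1246 among genes with a mean over 5 FPKM, against 1914. Those with every late library below numbered 2382 after median-ratio scaling and 7291 without E13.5 and E16.5, against 4612, where fewer libraries make non-overlap easier. Apart from this, the cause of the differences was not tested. Of the 1450 higher genes 1433 and of the 2956 lower genes 736 were called in the same direction under median-ratio scaling. No paired analysis was possible, since the sides hold different ages with 1 library each and no label links an early to a late library. Depth limits values near 0.147 to 0.192 FPKM.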

Other observations

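In 3 genes that were not past the threshold the most extreme fetal value was that of E18.5, and they were chosen after their values were seen. Irf7, which drives interferon genes, stood at 3.07, 4.56 and 5.11 FPKM at E12.5, E13.5 and E14.5, at 3.69 FPKM at E16.5, at 8.63 FPKM at E17.5 and at 59.9 FPKM at E18.5. At D1 it was at 30.2 FPKM, and the difference between the sides had an adjusted p of 0.155 (limma). Serpina6 was at 7.18 FPKM at D1, below its 17.6 FPKM at E18.5, and G6pc was at 104 FPKM at D1, above its 64.0 FPKM at E18.5. With 1 library at E18.5, these values have no replicate.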
